A study of Mus musculus with 6 samples.

Results

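Replication-dependent histone genes are the clustered genes that supply histones for new chromatin. They were taken here as all genes whose symbol in the GENCODE M21 annotation of mouse build GRCm38 begins with Hist1h, Hist2h, Hist3h or Hist4h. There were 70 such genes, 67 annotated as protein coding and 3 as pseudogenes, beside 45320 gene identifiers in the tables. The tables held 68 of the 70, and the levels of Hist1h2bh and Hist1h2bm were not analysed here, though their annotated sequences were. Of the 68, 66 were above 0 in at least 1 library and 61 in every library. Hist1h1t and Hist1h2aa were listed at 0 throughout.

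Most mRNAs end in a poly(A) tail. Replication-dependent histone mRNAs end instead just after a short stem-loop in the 3′ untranslated region, which the stem-loop binding protein holds and the U7 snRNP helps to cut. Their genes lie in clusters, mostly lack introns, and are transcribed mainly during S phase. In tissue with few dividing cells some of them are also known to give spliced or polyadenylated transcripts. The core histones H2A, H2B, H3 and H4 form the nucleosome, and H1 binds the linker DNA between nucleosomes.

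Whole brown fat was taken from C57BL/6 mice that were 4 weeks old when a high-sugar, high-fat diet began. After 4 weeks on it, treated mice had RO5508887 added to the diet, and untreated mice stayed on the diet alone. RO5508887 is a small molecule, still experimental, that blocks the protease Bace1. The treated samples were 17, 33 and 35, and the untreated samples were 13, 14 and 15. Samples 33 and 35 had identical tables in all 45320 values, which is less than sampling noise, so they counted as 1 library (treated 33/35), leaving 2 treated and 3 untreated libraries. Nothing in the labels ties a sample to a separate animal, so p-values reflect sample-to-sample spread, possibly technical. Levels are FPKM, fragments scaled by transcript length and sequencing depth. The labels name a total RNA library preparation and do not say how ribosomal RNA was handled or whether strand was kept.

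The stem-loop is shown first because it defines how these mRNAs end, and because it differs between classes. It was found in the annotated 3′ untranslated region of 46 of the 70 genes, between 21 and 58 bases after the stop codon, with a median of 31. Of the 24 genes without it, 18 had under 20 bases of annotated 3′ untranslated region. These include the 3 pseudogenes, which have no annotated stop codon and were not searched. A missing match in these 18 says only that the annotation leaves little or nothing to search. The lines below give 26 bases, 5′ to 3′, from GENCODE M21 transcripts, with the 16-base stem-loop in capitals.
Hist1h1c (H1): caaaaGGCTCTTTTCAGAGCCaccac
Hist2h2aa1 (H2A): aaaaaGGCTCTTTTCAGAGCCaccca
Hist1h2bg (H2B): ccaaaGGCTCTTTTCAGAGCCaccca
Hist2h3c2 (H3): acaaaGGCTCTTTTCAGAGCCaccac
Hist1h4h (H4): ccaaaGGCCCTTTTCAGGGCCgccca
Hist1h4i (H4): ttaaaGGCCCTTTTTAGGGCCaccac
These windows lie at chr13:23739507-23739532 on the plus strand for Hist1h1c, chr3:96246027-96246052 plus for Hist2h2aa1 and chr13:23571838-23571863 plus for Hist1h2bg. The others lie at chr3:96238480-96238505 minus for Hist2h3c2, at chr13:23531453-23531478 plus for Hist1h4h, and on the minus strand of chromosome 13 for Hist1h4i. The form shown for Hist1h1c was held by 3 H1, 10 H2A, 8 H2B and 5 H3 genes. The H4 genes had other stems, with the form shown for Hist1h4h in 7, that of Hist1h4i in 2, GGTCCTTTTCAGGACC in 2 and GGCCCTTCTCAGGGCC in 1.

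Histone mRNA was readily measured in both groups, and 5 genes on 2 chromosomes carried most of it. Mean levels over the 5 libraries were 88.7 FPKM for Hist1h2bc, 75.9 for Hist1h1c, 41.3 for Hist1h4h, 39.6 for Hist2h2aa2 and 31.6 for Hist2h2aa1. Hist1h2bg followed at 13.8 FPKM, and these 6 were the only members with a mean of 10 FPKM or more. The 8 highest members, which also include Hist2h2be and Hist1h2be, made up 82.8% of the summed FPKM of all members. By cluster, Hist1 on chromosome 13 held 75.0% of that sum, Hist2 on chromosome 3 held 23.1%, Hist3 held 1.84% and Hist4 held 0.0889%. By class, H2B held 35.9%, H1 22.5%, H2A 22.3%, H4 16.5% and H3 2.84%. The classes thus differed widely in FPKM, with H3 far below the other core histones.

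**Figure D1:**
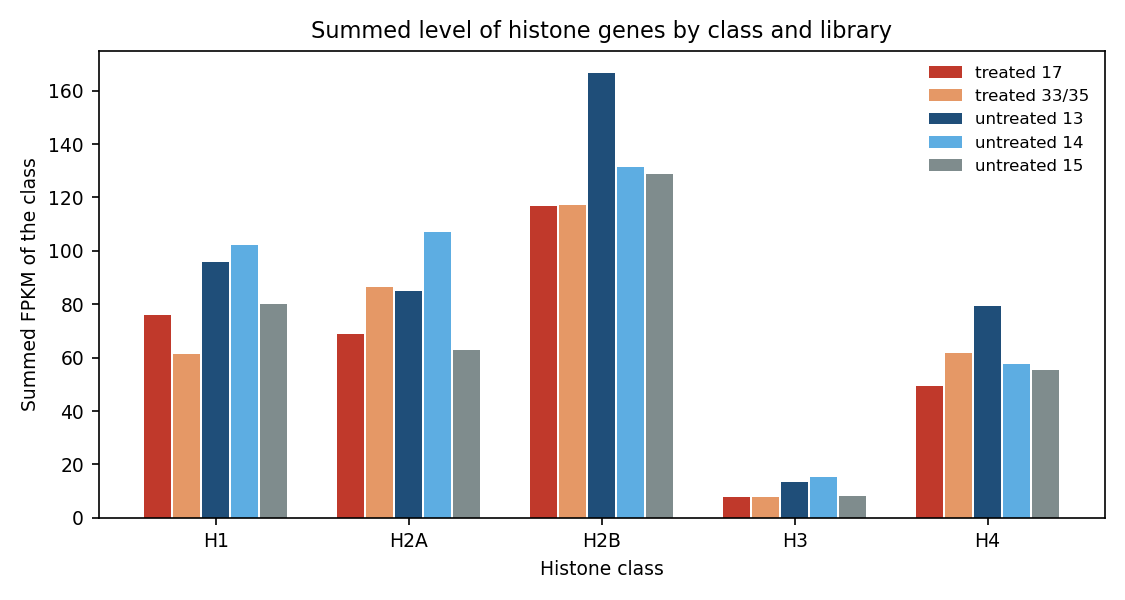
Summed FPKM of each histone class in each library, 1 bar per library, with the 2 treated libraries left of the 3 untreated ones. H1, H2B and H3 were lower in both treated libraries than in every untreated one, while H2A and H4 overlapped. As shares of all FPKM, H1 and H3 overlapped too.

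Summed over all members, the level was 318.9 and 334.8 FPKM in treated 17 and treated 33/35, against 440.3, 413.5 and 335.4 FPKM in untreated 13, 14 and 15. Treated 33/35 and untreated 15 were nearly equal, so the groups were barely apart. With the pseudogenes left out the sums were 317.8 and 333.6 FPKM in treated and 438.4, 412.0 and 333.3 FPKM in untreated libraries, and the groups overlapped. The means were 327 ± 11.2 FPKM in treated (SD, n = 2) and 396 ± 54.5 FPKM in untreated libraries (SD, n = 3), a log2 ratio of -0.28. As a share of all FPKM the members made up 0.0533% and 0.0542% in treated, against 0.0682%, 0.0726% and 0.0525% in untreated libraries, which overlap. Taken as such shares, H1 was 0.0127% and 0.00996% in treated, against 0.0149%, 0.0179% and 0.0125% in untreated libraries, and H1 then overlapped. H3 shares overlapped as well, at 0.00129% and 0.00127% in treated, against 0.00209%, 0.00266% and 0.00126% in untreated libraries. H2B alone among the classes stayed apart, at 0.0195% and 0.0190% in treated, against 0.0258%, 0.0231% and 0.0202% in untreated libraries. Hist1h2bc alone made up 67.1% of the H2B sum, yet its own share of all FPKM overlapped between the groups. It had 78.3 of 597859 FPKM in treated 17, against 82.6 of 639074 FPKM in untreated 15. In bulk tissue, fewer cells of a type and less RNA per cell cannot be told apart.

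No histone gene passed the test between treated and untreated tissue. The test was limma on log2(FPKM + 0.5), with Benjamini-Hochberg adjustment over the 13527 genes that averaged 1 FPKM or more. Of 68 members 30 reached that mean: 3 of H1, 3 of H2A, 12 of H2B, 4 of H3 and 8 of H4. None was called at an adjusted p under 0.05, and none had an unadjusted p under 0.05, where the smallest was 0.0647 and each adjusted p was 1.00. Over all genes 6 were called, or 0.0444% (higher 0.0296%, lower 0.0148%), and 125 had an unadjusted p under 0.05, or 0.924%. The count of 6 became 114 without untreated 14, and 0 without treated 17, untreated 13 or untreated 15. So few calls over all genes leave little for a group of 30 to be read against.

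Fitted log2 fold changes, treated minus untreated, were below 0 for 26 of the 30 members, against 35.7% of all tested genes. Their median was -0.20, beside 0.06 for all tested genes. With library medians set equal, it was -0.31 beside -0.05. The values ran from -0.77 for Hist1h1e to 0.63 for Hist1h2bb. Members share sequence and libraries, so these are not independent values. The groups did not overlap for 6 of the 30. Both treated libraries were lower than all untreated ones for Hist1h1c, Hist1h1d, Hist1h1e, Hist3h2a and Hist1h2bc, 5 of 30 against a background of 3.18% of tested genes. Both were higher for Hist1h2bb alone, against a background of 5.5%. Taken as shares of all FPKM, Hist1h1c, Hist1h1e and Hist1h2bc overlapped, and Hist1h1d and Hist3h2a stayed lower. For the genes that overlapped, treated 17 was then above untreated 15. All FPKM summed to 597859 in treated 17 and to 639074 in untreated 15. Over all 68 members, with no filter, 8 were lower and 2 higher without overlap, against backgrounds of 3.74% and 6.09%. The 38 members under 1 FPKM summed to 12.5 and 10.5 FPKM in treated and 17.4, 13.0 and 12.3 FPKM in untreated libraries. Nearest the limit of 1 FPKM were Hist1h2bp at 0.946, Hist1h4m at 0.950 and Hist1h2al at 0.988 below it, and Hist1h3e and Hist1h2br at 1.03 and Hist1h2ba at 1.05 above it.

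**Figure D2:**
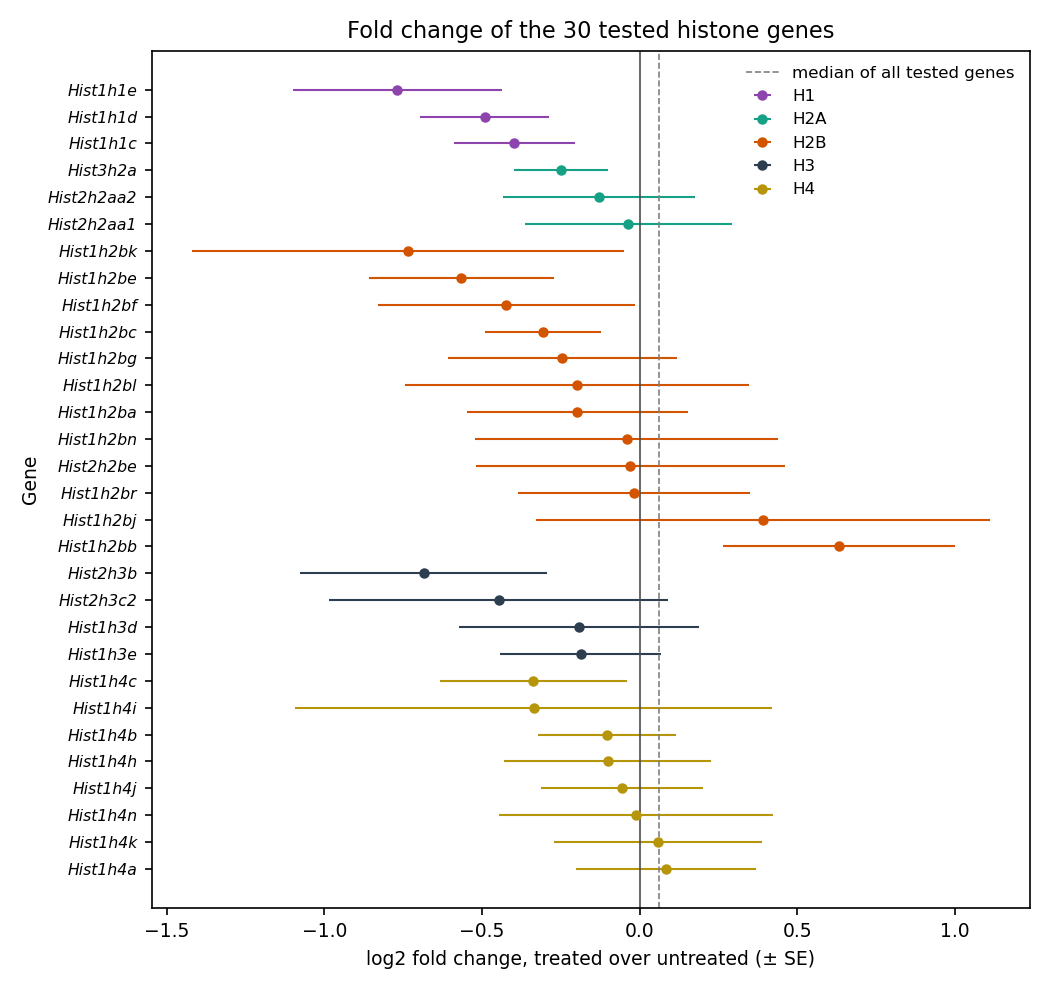
Log2 fold change, treated over untreated, of the 30 tested histone genes with the standard error of the limma fit, coloured by class and ordered within it. The solid line marks 0 and the dashed line the median of all tested genes, 0.06; most points lie left of both, and no gene passed the adjusted threshold.

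All 3 tested linker histone genes had lower FPKM in both treated libraries, though none passed the test. Taken as shares of all FPKM, Hist1h1c and Hist1h1e overlapped. Hist1h1c, the main linker histone gene here, had 69.5 and 57.8 FPKM in treated libraries, against 87.2, 92.0 and 73.0 FPKM in untreated ones. Every treated value lay under every untreated value, and the log2 fold change was -0.40 (SE 0.19). Hist1h1e had 4.37 and 2.47 FPKM in treated libraries, against 5.78, 7.97 and 4.61 FPKM in untreated ones, a log2 fold change of -0.77 (SE 0.33). Hist1h1e overlaps Hist1h2be on the same strand, so reads of the 2 genes may be mixed. Hist1h1d had 1.40 and 1.10 FPKM in treated libraries, against 1.91, 2.01 and 1.93 FPKM in untreated ones, a log2 fold change of -0.49 (SE 0.21). The FPKM of Hist1h1d depends on an annotated transcript of 7425 bases, long for this family. The class summed to 76.0 and 61.5 FPKM in treated and 95.9, 102 and 80.0 FPKM in untreated libraries, with Hist1h1c making up 91.3% of it.

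The replacement linker gene H1f0, whose mRNA is polyadenylated, overlapped between the groups. It had 53.9 and 49.6 FPKM in treated libraries, against 56.1, 51.1 and 55.3 FPKM in untreated ones. Hist1h1c was 53.0% and 51.3% of the summed linker FPKM in treated libraries, against 57.0%, 59.4% and 53.5% in untreated ones. H1f0 was 41.1% and 44.1% in treated libraries, against 36.7%, 33.0% and 40.5% in untreated ones. The difference in share was not tested.

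H2A mRNA came mostly from a pair of near-identical Hist2 genes, and the groups overlapped in both. Hist2h2aa2 (chr3:96239749-96240276, minus strand) had 31.8 and 42.2 FPKM in treated libraries, against 40.5, 53.3 and 29.9 FPKM in untreated ones. Hist2h2aa1 (chr3:96245497-96246082, plus strand) had 26.5 and 34.8 FPKM in treated libraries, against 31.6, 43.0 and 22.3 FPKM in untreated ones. In both genes untreated 14 was highest and untreated 15 lowest, and the log2 fold changes were -0.13 for Hist2h2aa2 and -0.04 for Hist2h2aa1. Both turned positive without treated 17 (0.07 and 0.16) or without untreated 14 (0.07 and 0.19). Hist2h2aa2 made up 48.2% and Hist2h2aa1 38.5% of the H2A sum. Every run of 50 bases in either gene also occurs in another gene, so the split between them is uncertain. Hist3h2a had 5.57 and 5.44 FPKM in treated libraries, against 7.36, 6.53 and 6.09 FPKM in untreated ones, a log2 fold change of -0.25. It overlaps the gene Trim17 on the same strand, so its reads may be mixed with those of Trim17. The other 17 H2A genes were each under 1 FPKM on average.

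All 20 H2A genes overlap another annotated gene on the opposite strand, mostly predicted miRNA models. Gm47311, a 138-base model inside Hist2h2aa2, had 29.2 and 61.9 FPKM in treated libraries, against 61.5, 46.1 and 23.7 FPKM in untreated ones. Gm47313, inside Hist2h2aa1, had 35.6 and 68.6 FPKM in treated libraries, against 70.7, 53.8 and 30.4 FPKM in untreated ones. Gm44341, inside the pseudogene Hist1h2al, had 36.3 and 69.8 FPKM in treated libraries, against 71.9, 54.6 and 31.4 FPKM in untreated ones. All 3 were highest in treated 33/35 and untreated 13 and lowest in untreated 15. Since the use of strand is not stated, H2A reads and reads of these models cannot be told apart.

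H2B was the largest class, and 1 spliced gene led it. Hist1h2bc (chr13:23684199-23692908, plus strand) is annotated with 2 exons, a transcript of 1156 bases and a 3′ untranslated region in which no stem-loop was matched. It had 78.3 and 76.4 FPKM in treated libraries, against 108, 98.3 and 82.6 FPKM in untreated ones, a log2 fold change of -0.31 (SE 0.18). The treated FPKM lay close together and under every untreated value, though shares of all FPKM overlapped. Hist1h2bg had 9.24 and 15.4 FPKM in treated libraries, against 20.2, 10.6 and 13.4 FPKM in untreated ones. Hist2h2be had 7.20 and 6.56 FPKM in treated libraries, against 10.2, 3.49 and 9.53 FPKM in untreated ones. In both of these genes the groups overlapped. The log2 fold change of Hist1h2bg was -0.24, and 0.11 without treated 17. That of Hist2h2be was -0.03, and turned positive without treated 33/35 (0.03), untreated 13 (0.22) or untreated 15 (0.18). Hist1h2bb alone among tested H2B genes was higher without overlap, though 2 of 12 had a log2 fold change above 0. It had 2.25 and 2.16 FPKM in treated libraries, against 2.16, 0.933 and 0.889 FPKM in untreated ones. Its log2 fold change was 0.63 (SE 0.37). Treated 33/35 and untreated 13 were almost equal for it. The class summed to 116.7 and 117.3 FPKM in treated and 166.6, 131.5 and 129.0 FPKM in untreated libraries, with Hist1h2bc making up 67.1% of it.

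**Figure D3:**
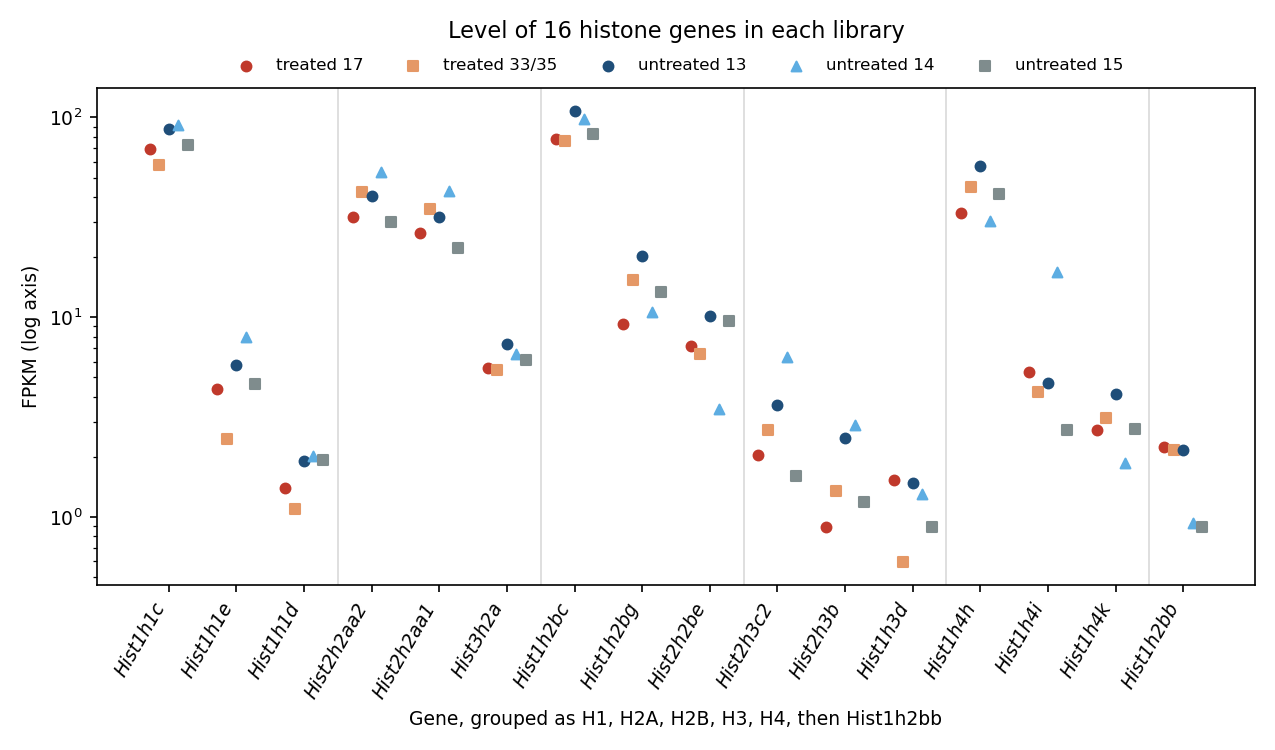
FPKM, on a log axis, of 16 histone genes in each library, with the 2 treated libraries left of the 3 untreated ones within each gene. Hist1h1c, Hist1h1e, Hist1h1d, Hist3h2a and Hist1h2bc were lower in both treated libraries, and Hist1h2bb narrowly higher. The other 10 genes overlapped, and as shares of all FPKM Hist1h1c, Hist1h1e and Hist1h2bc did too.

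H3 genes had low FPKM, and the 2 leading ones were in Hist2. Hist2h3c2 had 2.05 and 2.72 FPKM in treated libraries, against 3.65, 6.33 and 1.61 FPKM in untreated ones, a log2 fold change of -0.45. Hist2h3b had 0.892 and 1.35 FPKM in treated libraries, against 2.49, 2.91 and 1.19 FPKM in untreated ones, a log2 fold change of -0.68. Hist1h3d had 1.54 and 0.594 FPKM in treated libraries, against 1.48, 1.30 and 0.896 FPKM in untreated ones. The log2 fold change of Hist1h3d was -0.19, and 0.26 without treated 33/35. All 3 genes overlapped between the groups. Every 50-base run of Hist2h3b occurs in another gene too, on either strand, and 79.7% of them in another member. The sum of the class was 7.72 and 7.85 FPKM in treated libraries, against 13.5, 15.2 and 8.03 FPKM in untreated ones, with untreated 15 close to the treated values. Of the 12 H3 genes 8 share over 50% of their 50-base runs with other genes. Hist2h3c1, at a mean of 0.179 FPKM, overlaps Gm20634 on the same strand, as does Hist2h2aa1. Gm20634 averaged 4.74 FPKM, so H3 reads may be counted there and the class sum may be too low.

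H4 mRNA came mainly from Hist1h4h, which gave 68.1% of the class. Hist1h4h (chr13:23531050-23531519, plus strand) had 33.1 and 45.1 FPKM in treated libraries, against 56.9, 30.2 and 41.4 FPKM in untreated ones. Untreated 13 was highest and untreated 14 lowest, so the groups overlapped, and the log2 fold change was -0.10, or 0.12 without treated 17 and 0.13 without untreated 13. Hist1h4i had 5.31 and 4.24 FPKM in treated libraries, against 4.70, 16.8 and 2.73 FPKM in untreated ones, with untreated 14 far above the rest. That library also had the highest sum of skeletal muscle markers. The gene's log2 fold change was -0.34, and 0.36 without untreated 14. Hist1h4k had 2.73 and 3.13 FPKM in treated libraries, against 4.12, 1.86 and 2.75 FPKM in untreated ones. Its log2 fold change was 0.06, and turned negative without treated 33/35 (-0.03) or untreated 14 (-0.18) and with median scaling (-0.05). The class summed to 49.5 and 61.8 FPKM in treated and 79.2, 57.7 and 55.3 FPKM in untreated libraries, and these overlap.

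H2A and H2B genes often lie head to head over a short shared promoter, yet the 2 sides differed widely in level. Of 13 measured pairs within 1000 bases, the H2B gene had the higher FPKM in all 5 libraries in 12. The exception was Hist3h2a, whose partner is the pseudogene Hist3h2bb-ps. The widest gap was between Hist1h2ac at 0.321 FPKM and Hist1h2bc at 88.7 FPKM on average, a ratio of 276, with 250 bases between the 2 starts. Hist1h2ae had 0.508 FPKM beside 13.8 FPKM for Hist1h2bg, a ratio of 27.1. FPKM divides by annotated length, which is 2482 bases for Hist1h2ac and 1156 for Hist1h2bc. H2A genes also share more of their sequence with other genes, at a median of 73.2% of 50-base runs against 49.7% in H2B. The part of shared sequence in these ratios was not tested.

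**Figure D4:**
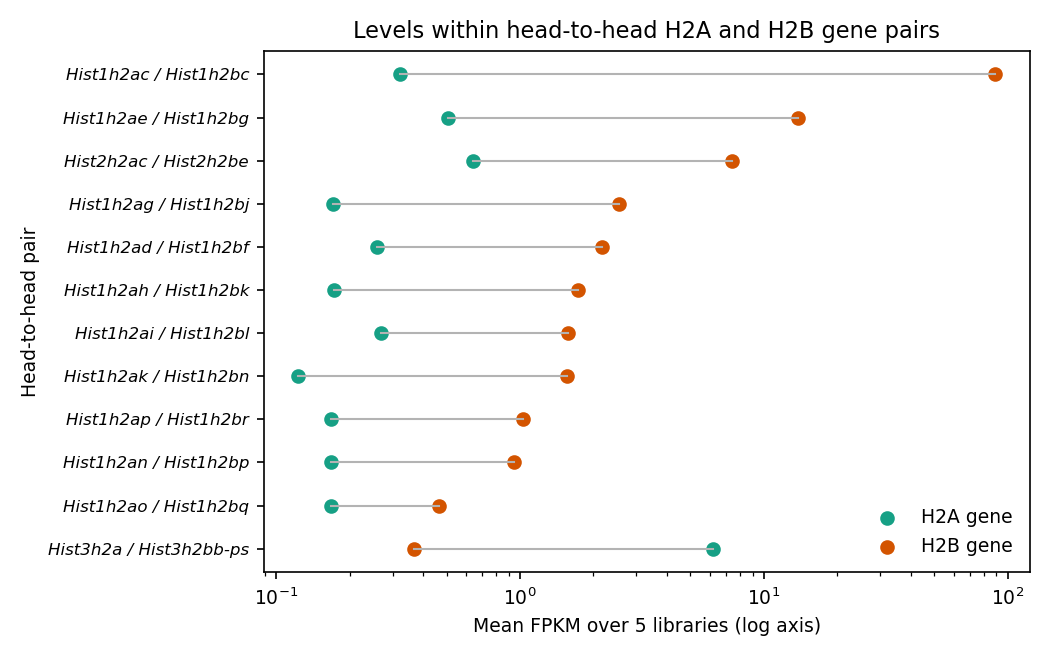
Mean FPKM over the 5 libraries, on a log axis, of the H2A and the H2B gene in each head-to-head pair, joined by a line; the pair of Hist1h2aa, listed at 0, is left out. The H2B gene is higher in each drawn pair other than Hist3h2a and Hist3h2bb-ps.

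The promoters are shown for the pair with the widest gap and for the main linker gene, since Hist1h2bc of that pair leads H2B and Hist1h1c leads H1. They are 300-base windows from RefSeq on GRCm38.p6, printed 5′ to 3′ on the gene's strand, with CCAAT, the octamer ATTTGCAT and TATAAA in capitals on either strand. The first is Hist1h2ac at chr13:23683910-23684209, minus strand, which also spans the whole gap to Hist1h2bc. The second is Hist1h1c at chr13:23738557-23738856, plus strand.
Hist1h2ac: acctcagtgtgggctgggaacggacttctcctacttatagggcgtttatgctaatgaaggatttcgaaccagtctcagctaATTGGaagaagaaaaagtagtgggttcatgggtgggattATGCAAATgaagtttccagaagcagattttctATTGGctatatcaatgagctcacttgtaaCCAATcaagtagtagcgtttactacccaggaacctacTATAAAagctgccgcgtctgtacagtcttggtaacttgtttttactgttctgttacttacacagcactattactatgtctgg
Hist1h1c: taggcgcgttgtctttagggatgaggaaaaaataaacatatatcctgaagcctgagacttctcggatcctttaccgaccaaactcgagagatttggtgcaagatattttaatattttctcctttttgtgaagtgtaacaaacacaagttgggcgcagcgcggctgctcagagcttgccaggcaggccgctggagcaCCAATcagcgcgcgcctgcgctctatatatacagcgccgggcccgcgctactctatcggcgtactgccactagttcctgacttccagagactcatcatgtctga
The Hist1h2ac window holds all 3 motifs, and the Hist1h1c window holds CCAAT alone. Of the 70 genes 62 had a window in RefSeq. CCAAT was found in 85.5% of them, against 41.1% of 27025 RefSeq promoters of the same length. All H1, H2A, H2B and H3 windows held it, and 3 of 12 H4 windows did. The octamer, the site of Oct factors known from H2B promoters, was in 22.6%, against 1.97% of all promoters. It was in 7 of 18 H2A and 7 of 16 H2B windows, and in none of H1, H3 and H4. TATAAA was in 56.5%, against 15.7% of all promoters. Windows of both genes in a head-to-head pair can cover the same bases. A match there can be counted more than once, in the counts by class and in the percentages of members. A match is a string of letters and not a measured binding site.

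The members were also grouped by their annotated 3′ ends. A poly(A) signal (AATAAA or ATTAAA) lay in the last 60 bases of an annotated transcript of 17 measured members, which held 41.1% of the members' FPKM. The 14 with both a stem-loop and a signal summed to 124.8 and 121.8 FPKM in treated and 172.8, 159.3 and 134.0 FPKM in untreated libraries. The 30 with a stem-loop alone summed to 96.4 and 115.9 FPKM in treated and 129.4, 139.9 and 94.8 FPKM in untreated libraries. The 3 with a signal alone summed to 8.81 and 7.76 FPKM in treated and 11.9, 4.55 and 11.4 FPKM in untreated libraries. The 21 with neither summed to 88.9 and 89.4 FPKM in treated and 126.1, 109.7 and 95.1 FPKM in untreated libraries. Of these 21, 18 had under 20 bases of annotated 3′ untranslated region, so the annotation left little or nothing to search. Sums of the genes with both and of those with neither did not overlap, and the other 2 sums did. The genes with both held 38.7% of the members' FPKM, of which Hist1h1c alone was 20.6%. Those with neither held 27.6%, of which Hist1h2bc alone was 24.1%. Each of these 2 sums thus rests largely on 1 gene. Differences between these groups of genes were not tested. FPKM per gene does not show which 3′ end the sequenced molecules had.

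Genes that make or replace histones did not pass the test either. None of the 12 tested replacement variants, 23 tested factors of histone mRNA synthesis and processing and 20 tested S phase and proliferation genes was called, and none had an unadjusted p under 0.05. Their median log2 fold changes were 0.02, 0.07 and 0.10, beside 0.06 for all tested genes and -0.20 for the clustered histones. H3f3a, a replacement H3 gene, had 159 and 164 FPKM in treated libraries, against 152, 196 and 143 FPKM in untreated ones. Cenpa, the centromeric H3 gene, had a log2 fold change of 0.45, and the H3 gene H3f3c one of 0.16, and both overlapped. Casp8ap2, a histone pre-mRNA processing factor, had 2.34 and 2.60 FPKM in treated libraries, against 3.08, 4.14 and 2.60 FPKM in untreated ones. For it treated 33/35 and untreated 15 were almost equal, at 2.599 and 2.601 FPKM. Npat, which drives histone gene transcription, was the other tested factor lower in both treated libraries. It had 2.42 and 2.42 FPKM in treated libraries, against 2.69, 2.56 and 2.72 FPKM in untreated ones. These were 2 of 23 tested factors, against a background of 3.18% of tested genes. Tut7, which adds uridines to histone mRNA in decay, had a log2 fold change of 0.16, and Srrt, a partner of the cap-binding complex, one of -0.08. Pcna, the sliding clamp of DNA replication, had 23.1 and 28.9 FPKM in treated libraries, against 24.3, 22.7 and 24.5 FPKM in untreated ones. The proliferation genes Birc5 and Rrm2 had log2 fold changes of 0.45 and 0.38, and both overlapped.

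Other RNAs, listed because some or all of their transcripts lack an ordinary poly(A) tail, differed widely in level. Terc and Rnu12 were at 0 in every library, and Rmrp and Rpph1 averaged 0.529 and 1.52 FPKM. Rn7sk, the 7SK RNA that holds the elongation factor P-TEFb, had 5.94 and 9.82 FPKM in treated libraries, against 1.32, 1.39 and 0.498 FPKM in untreated ones. Its log2 fold change was 2.43 (SE 0.40), with an unadjusted p of 0.00214 and an adjusted p of 1.00 in limma. Neat1, a nuclear RNA of paraspeckles, had 426 and 389 FPKM in treated libraries, against 271, 471 and 411 FPKM in untreated ones. Rnu11, of the minor spliceosome, was at 9.97 FPKM in treated 17 and listed at 0 in the other libraries. Malat1 had 75.5 and 76.9 FPKM in treated libraries, against 87.8, 81.2 and 83.2 FPKM in untreated ones, so the treated values were lower and did not overlap.

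The libraries differed in ways that cross these comparisons. Depth relative to untreated 13, read from steps between low values, ran from 0.810 to 1.01. Skeletal muscle markers (14 of 15 matched) summed to 11013 and 4736 FPKM in treated and to 31.2, 25057 and 25.8 FPKM in untreated libraries. Brown adipocyte markers summed to 2814 and 3345 FPKM in treated and 4046, 902 and 4197 FPKM in untreated libraries. With the muscle markers as a covariate 1 member was called, Hist1h4i, at a log2 fold change of -1.29 and an adjusted p of 0.0394 in limma, while all genes called went to 2047. Without untreated 14 the member median was -0.26 and no member was called. Mast cell markers summed to 29.5 and 25.2 FPKM in treated, against 16.8, 21.7 and 6.72 FPKM in untreated libraries. Of these 5 markers 4 were higher without overlap, against a background of 5.5% of tested genes. Markers of 1 cell type are not independent values. Erythroid markers summed to 1311 and 1934 FPKM in treated, against 3711, 1137 and 1389 FPKM in untreated libraries. The part of mast and blood cells in the histone values was not tested.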

How the data were processed

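RNA-seq of brown adipose tissue was used from 6 samples in 2 groups. Per the labels, Trizol was used for extraction and the kit was for total RNA. Each of the authors' deposited tables gives FPKM for 45320 Ensembl genes. The submitters' processing notes name CASAVA 1.7 and GRCm38. Aligner, quantifier and annotation release are not given in the sources used here. FPKM are not counts, so depth is unknown beyond the relative values and no counting interval is given. Samples 33 and 35 were identical and counted once.

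Symbols, coordinates and transcript sequences came from GENCODE M21, which held 44395 identifiers; the other 925 kept their identifiers. Promoters came from RefSeq. Genes averaging 1 FPKM or more were fitted as log2(FPKM + 0.5) with limma 3.58.1 in R 4.3.3, with empirical Bayes moderation, a variance trend, 3 residual degrees of freedom and a two-sided test. The threshold was a Benjamini-Hochberg adjusted p of 0.05. Fold changes on this scale understate those of low genes. A shared 50-base run is one that also occurs, on either strand, in a transcript of another gene. The fit was tested on simulated data. Python 3.11.15, numpy 2.4.6, pandas 2.3.3 and matplotlib 3.10.9 were used.

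Named members were those past the threshold, the 3 of highest mean FPKM in each class, and up to 3 further members in each direction with non-overlapping groups, by smallest p. In each other list they were the 2 with the smallest p and the most abundant. Npat, Malat1, H1f0, the pairs and the overlapping models were added once their values had been seen. The members and lists were chosen with earlier results of these data known. Alternatives were other pseudocounts, filters, scalings and variance models, sample weights, a muscle covariate and leaving out each library.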

Additional observations from a re-analysis of the deposited data

How the results depend on the processing

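No member was called in any alternative other than the muscle covariate, which called 1 member (Hist1h4i, lower), 1 replacement variant (Cenpa, higher) and 1 processing factor (Slbp, higher; named after its value was seen). The median log2 fold change of the tested members stayed below 0, from -0.42 with quantile normalization to -0.07 with the muscle covariate, and over leaving out libraries from -0.28 to -0.10. The log2 ratio of the summed FPKM ran from -0.39 to -0.20. The number of all genes called moved from 6 to 2 with a pseudocount of 0.1, to 0 with no filter or with protein-coding genes alone, to 10 with sample weights and to 2047 with the muscle covariate. It ran from 0 to 114 over leaving out single libraries. The cause of these moves was not tested.

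Over 18 alternatives, Hist1h1c, Hist1h1d, Hist1h1e, Hist1h2bc, Hist3h2a, Hist2h3b, Hist2h3c2 and Hist1h2bb kept their direction, with log2 fold changes from -0.53 to -0.26 for Hist1h1c and -0.42 to -0.22 for Hist1h2bc. The other 8 named members changed sign in at least 1 alternative, in no case past the threshold in the fit where the sign changed. Over leaving out single libraries, their log2 fold changes ran from -0.34 to 0.074 for Hist2h2aa2, -0.27 to 0.19 for Hist2h2aa1, -0.45 to 0.11 for Hist1h2bg, -0.49 to 0.22 for Hist2h2be, -0.64 to 0.26 for Hist1h3d, -0.33 to 0.13 for Hist1h4h, -0.85 to 0.36 for Hist1h4i and -0.18 to 0.30 for Hist1h4k. Without treated 33/35, Hist2h2be was 0.033 and Hist1h4k -0.026. With sample weights, Hist2h2aa1 was 0.098, Hist1h4i 0.20 and Hist1h4k -0.25. With the muscle covariate, Hist1h2bg was 0.056, Hist2h2be 0.59 and Hist1h4h 0.22. With the identical tables counted separately Hist2h2aa1 was 0.029. Hist1h4k was -0.054 with median scaling, which moved the median of all tested genes to -0.05, and -0.10 with quantile normalization. No paired analysis was possible because the treated and untreated samples share no sample number.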
